A study of Mus musculus and Homo sapiens with 24 samples.

Results

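The addition of CoCl2 to estrogen-treated HepG2 cells was examined by comparing 3 libraries of cells that had received CoCl2 and estrogen together (CoCl2+estrogen) with 3 libraries of cells that had received estrogen alone. The comparison covered every gene that exceeded a count of 5 in any of these 6 libraries, which was 15925 of the 28278 genes of the HepG2 count table. The 6 libraries belong to 12 from HepG2 cells, in a series of 24 samples whose other 12 are mouse livers. HepG2 is an established human hepatoma line with hepatocyte character, obtained by the authors from a cell bank and kept without serum overnight before treatment. Estrogen stands for 25 nM β-estradiol, CoCl2 was used at 50 μM, and both groups were treated for 4 h. The remaining HepG2 groups, control cells and cells with CoCl2 alone, are given for reference. The 12 libraries share 1 tumour line, and no source used here says that the replicates A, B and C came from independently grown cultures, so p-values measure the spread between these libraries.

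Hypoxia-inducible factor (HIF) is a transcription factor made of an α subunit, HIF1α or HIF2α, and a constant partner encoded by ARNT. In the presence of oxygen, prolyl hydroxylases of the EGLN family mark the α subunit, the VHL protein binds it, and it is destroyed. Cobalt ions interfere with the hydroxylases, so that CoCl2 allows HIF1α to accumulate at normal oxygen, and HIF then raises genes of glycolysis, vessel growth, iron handling and mitochondrial turnover. The study asked whether estrogen and a hypoxia-like state act together to lower protein S, an anticoagulant cofactor encoded by PROS1 that hepatocytes secrete. The step from estrogen to CoCl2+estrogen is the part of that design in which CoCl2 is added while estrogen is present in both groups.

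Total counts ran from 14593865 to 18498152 in the 3 estrogen libraries and from 15066039 to 16866725 in the 3 CoCl2+estrogen libraries. Expression is given below as CPM, the count of a gene relative to the library total after edgeR's TMM scaling (a trimmed mean of log ratios between libraries), and changes are log2 differences from edgeR's quasi-likelihood fit of the 6 libraries. Genes with a Benjamini-Hochberg adjusted p of at most 0.05 are called changed. The lowest correlation of log2 CPM between libraries within a group was 0.990, and the highest between the groups was 0.987. Of 30 hepatocyte markers all were detected, among them ALB, HNF4A and SERPINA1. Their summed level was 18915 to 20093 CPM in the estrogen and 20146 to 21224 CPM in the CoCl2+estrogen libraries. No fibroblast, leukocyte or endothelial marker was called, although 1 leukocyte marker was without CoCl2+estrogen replicate B, and COL1A2, COL3A1, DCN, PTPRC, CD3E, MS4A1, KDR and EMCN had no count in any of the 6 libraries. In all, 5 of 10 fibroblast, 3 of 11 leukocyte and 2 of 10 endothelial markers were at 0. Only 3 fibroblast, 6 leukocyte and 6 endothelial markers exceeded a count of 5 in any of these libraries and were tested. The summed fibroblast markers were 9.51 to 9.73 CPM with estrogen and 8.69 to 9.54 CPM with both agents, and the endothelial markers 11.2 to 13.2 and 11.4 to 13.1 CPM. The leukocyte markers summed to 841 to 954 CPM and 845 to 1049 CPM, nearly all of it from LYZ, the lysozyme gene.

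CoCl2 changed 2706 genes in the presence of estrogen, 1297 higher (8.14% of those tested) and 1409 lower (8.85%). Before adjustment 4637 genes had a p under 0.05, and for 5213 genes (32.7%) the groups did not overlap. Most changes were small. The median absolute log2 change of the called genes was 0.37, and 174 of them, 79 higher and 95 lower, changed more than 2-fold. The largest rises included HIF target genes and HMOX1, and the largest falls included histone genes, the stress gene DDIT3 and the chemokine gene CXCL2. The count was 1671 without estrogen replicate A and ran from 1814 to 2493 without any other single library. In bulk RNA, fewer cells with a transcript and less of it per cell cannot be told apart.

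**Figure D1:**
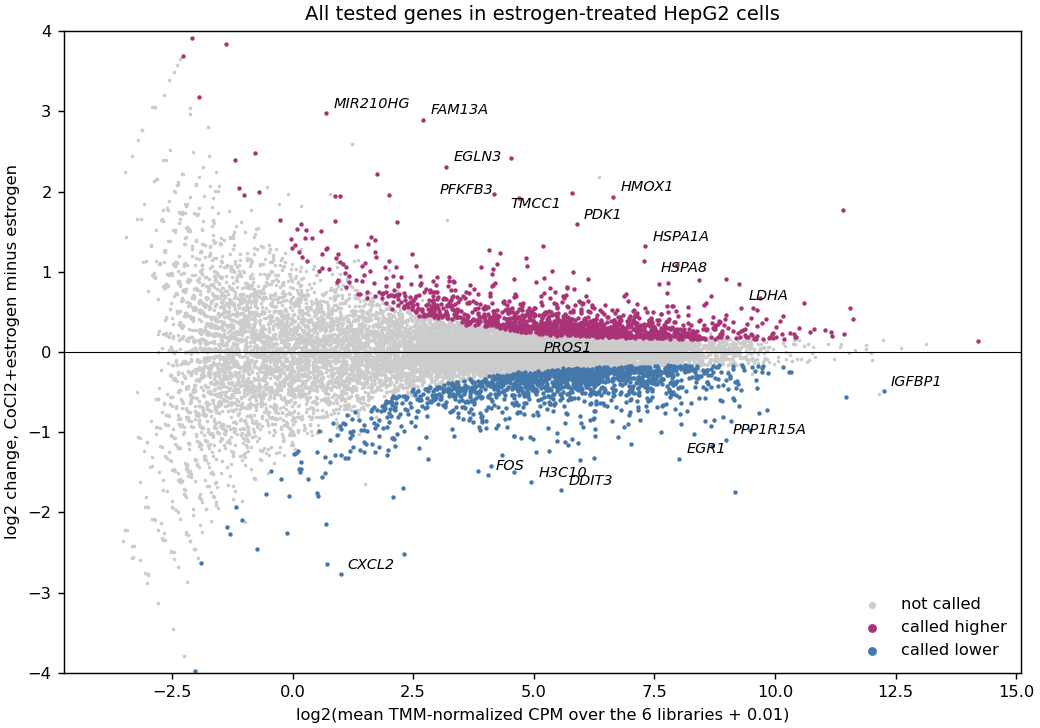
Log2 change between CoCl2+estrogen and estrogen cells (y axis) against the log2 mean CPM of the 6 libraries (x axis), with 1 point per tested gene. The 1297 genes called higher and 1409 called lower are coloured, 24 genes at or near 0 in 1 of the groups lie beyond the plotted range of 4 on the y axis, and most called genes lie within 1 log2 unit of 0.

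Among called genes that averaged 1 CPM or more and whose groups did not overlap, the 12 largest rises began with MIR210HG. This host transcript of the hypoxia-induced microRNA miR-210 rose by 2.98 on the log2 scale (SE 0.36). It was of low count, with 0.509, 0.357 and 0.209 CPM in estrogen libraries A, B and C. FAM13A, a HIF-responsive gene, followed. It had 1.47, 1.5 and 1.74 CPM in estrogen libraries A, B and C and 12.9, 12.1 and 9.44 in the CoCl2+estrogen libraries, a rise of 2.90 (SE 0.18, adjusted p = 7.10e-09, edgeR). TMCC1, which encodes a membrane protein of the endoplasmic reticulum, rose from 22.5, 22.7 and 23.4 to 88.5, 82.1 and 93.9 CPM, by 1.98 (SE 0.08, adjusted p = 1.62e-11, edgeR). All CoCl2+estrogen libraries lay far above all estrogen libraries for both genes. The long non-coding MIR193BHG rose by 1.96, LOC154761 by 1.95, and RIMKLA and ANKRD37, both HIF-responsive, by 1.62 and 1.63. LOC154761 and ANKRD37 were of low count too, with means of 0.76 and 0.903 CPM in the estrogen libraries. EGLN3, HMOX1 and PFKFB3, also among the 12, are described with their groups.

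The remaining pair of that group, RPL36A and RNA28SN2, is uncertain. RPL36A has near-identical copies, and RNA28SN2 is 1 of several copies of the 28S ribosomal RNA gene, whose transcripts the library preparation depletes. RNA28SN2 varied between 180.2 and 2556 CPM within the estrogen libraries and between 3057 and 6450 within the CoCl2+estrogen libraries. HBA1, a globin gene with a near-identical copy in HBA2, was also lowest in estrogen replicate B and highest in CoCl2+estrogen replicate A, with 4.41, 1.29 and 16.7 CPM in the estrogen and 63.1, 5.38 and 17 CPM in the CoCl2+estrogen libraries. Ribosomal RNA genes together took 0.922% to 1.33% of the normalized counts with estrogen and 0.993% to 1.39% with both agents. When they were left out, 2698 genes were called. Neither RNA28SN2 (adjusted p = 0.129, edgeR) nor HBA1 (adjusted p = 0.564, edgeR) was called without CoCl2+estrogen replicate A, and both calls were also lost without estrogen replicate A (adjusted p = 0.115 and 0.188, edgeR).

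The called HIF target genes of glycolysis were all higher. Of 28 measured genes of glucose uptake and glycolysis, 18 (64.3%) were called higher and none lower, against 8.14% and 8.85% of all tested genes. The list had a median log2 change of 0.39, against 0.01 over all tested genes. PFKFB3, whose product makes the activator of phosphofructokinase, had 10.5, 10.4 and 12 CPM in the estrogen and 38.2, 42.4 and 41.3 CPM in the CoCl2+estrogen libraries. This was a rise of 1.92 (SE 0.10, adjusted p = 4.76e-10, edgeR), or 3.79-fold. PDK1, a kinase that inhibits pyruvate dehydrogenase, rose from 28.5, 28.4 and 32.7 to 86.6, 92.2 and 86.2 CPM, by 1.60 (SE 0.08, adjusted p = 3.69e-10, edgeR). For both genes the replicates lay close together and no library of one group reached the other.

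The enzymes of the glycolytic pathway itself moved by less. LDHA, which converts pyruvate to lactate, had 467, 406 and 455 CPM with estrogen and 839, 720.0 and 793 CPM with both agents, a rise of 0.85 (SE 0.06, adjusted p = 6.76e-08, edgeR). ALDOA (aldolase) rose by 0.54, GPI (glucose-6-phosphate isomerase) by 0.52 and HK2 (hexokinase 2) by 0.26. GAPDH, a glycolytic enzyme gene that the study used as RT-qPCR reference, was itself called higher. It had 938, 936 and 893 CPM with estrogen and 1136, 1079 and 989 CPM with both agents, a change of 0.24 (SE 0.06, adjusted p = 0.00888, edgeR), which was 0.19 and not called without CoCl2+estrogen replicate A (adjusted p = 0.0633, edgeR). SLC2A1, the glucose transporter GLUT1, had 1259, 1231 and 1142 CPM and 1189, 1206 and 1169 CPM and a log2 change of 0.0017 with a 95% interval from -0.11 to 0.12.

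Of the HIF subunits and oxygen sensors, 14 genes were measured. The 3 that were called, 21.4% against 8.14% called higher over all tested genes, were all feedback regulators. EGLN3, the most inducible prolyl hydroxylase, had 3.62, 3.22 and 2.36 CPM in the estrogen and 15.6, 15.2 and 14.4 CPM in the CoCl2+estrogen libraries, a rise of 2.31 (SE 0.15, adjusted p = 9.90e-09, edgeR), or 4.96-fold. CITED2, a protein that competes with HIF for its coactivators, rose by 0.99 (adjusted p = 6.88e-08, edgeR), and EGLN1, the main oxygen sensor, by 0.32 (adjusted p = 0.00118, edgeR). HIF1A mRNA had 302, 280.2 and 309 CPM with estrogen and 289, 265 and 297 CPM with both agents. Its change was -0.04 (95% interval -0.16 to 0.08, adjusted p = 0.725, edgeR), and the groups overlapped. EPAS1, which encodes HIF2α, changed by -0.0076, ARNT by -0.12 and VHL by -0.12, none of them called. These values concern mRNA, whereas CoCl2 acts on HIF1α at the level of the protein, which these libraries do not measure.

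Genes of mitochondrial turnover and of collagen processing also rose where they were called. BNIP3 and BNIP3L, receptors that direct mitochondria to autophagy, rose by 0.61 and 0.78, and MXI1, an antagonist of MYC, by 0.69. These were among 5 of 10 genes (50%) called higher in a list of HIF targets in mitochondria, in which none was lower. PLOD2 and P4HA1, hydroxylases of collagen lysine and proline, rose by 0.90 and 0.62, and 3 of 10 matrix genes (30%) were higher with none lower. Over all tested genes, 8.14% were higher and 8.85% lower.

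Among 34 other HIF targets and regulators, 11 (32.4%) were higher and 4 (11.8%) lower, against 8.14% and 8.85% of all tested genes. BHLHE40, a transcriptional repressor of the circadian and hypoxic response, had 100.03, 96.4 and 100.3 CPM in the estrogen and 218, 202 and 219 CPM in the CoCl2+estrogen libraries, a rise of 1.14 (SE 0.06, adjusted p = 5.50e-10, edgeR). NDRG1, a widely used marker of hypoxia, rose by 0.86 (adjusted p = 9.18e-09, edgeR). The falls included KLF10, a zinc finger factor induced by TGF-β, with 344, 315 and 331 CPM with estrogen and 192, 172 and 202 CPM with both agents (log2 change -0.78, adjusted p = 1.02e-07, edgeR). SERTAD2, a transcriptional coregulator, changed by -0.64 (adjusted p = 1.93e-07, edgeR). DDIT4, an inhibitor of mTORC1 and a common HIF target, had 80.7, 82.5 and 68.3 CPM and 81.7, 84.1 and 78.3 CPM, and its log2 change of 0.11 was not called (adjusted p = 0.386, edgeR).

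The histone demethylase list held genes of both directions. Of its 10 genes, 3 (30%) were higher and 4 (40%) lower, against 8.14% and 8.85% of all tested genes. KDM3A, an H3K9 demethylase and HIF target, rose by 0.84 (SE 0.06, adjusted p = 2.12e-08, edgeR). KDM6B, an H3K27 demethylase, fell by 0.67 (adjusted p = 1.93e-07, edgeR) from 244, 257 and 250.3 CPM to 161, 153 and 149 CPM. KDM5B, an H3K4 demethylase, fell by 0.26.

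The secreted factors of the HIF response were mixed as well. Among 12 measured genes, 3 (25%) were higher and 3 (25%) lower, against 8.14% and 8.85% of all tested genes. ADM (adrenomedullin), a vasodilator peptide, had 30.1, 31.2 and 28.2 CPM with estrogen and 51.7, 49.6 and 50.6 CPM with both agents, a rise of 0.79 (SE 0.07, adjusted p = 5.99e-07, edgeR). EDN1 (endothelin 1), a vasoconstrictor, rose by 0.40. IGFBP1, a binding protein for insulin-like growth factors, fell from 6046, 5979.6 and 5228 CPM to 4077, 4128 and 3812 CPM, by 0.49 (SE 0.06, adjusted p = 2.20e-05, edgeR). VEGFA, the vessel growth factor, had 451, 467 and 443 CPM and 398, 416 and 390.5 CPM, all 3 libraries with both agents below those with estrogen, but its log2 change of -0.15 was not called (adjusted p = 0.0686, edgeR). DESeq2 called it (adjusted p = 0.0196), as did edgeR with the filterByExpr filter on low counts (adjusted p = 0.0434). Over the 7 HIF lists together, 46 of 118 measured genes (39%) were higher and 11 (9.32%) lower, with a median of 0.15. The share higher stood above the 8.14% of all tested genes, and the share lower was near the 8.85%.

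**Figure D2:**
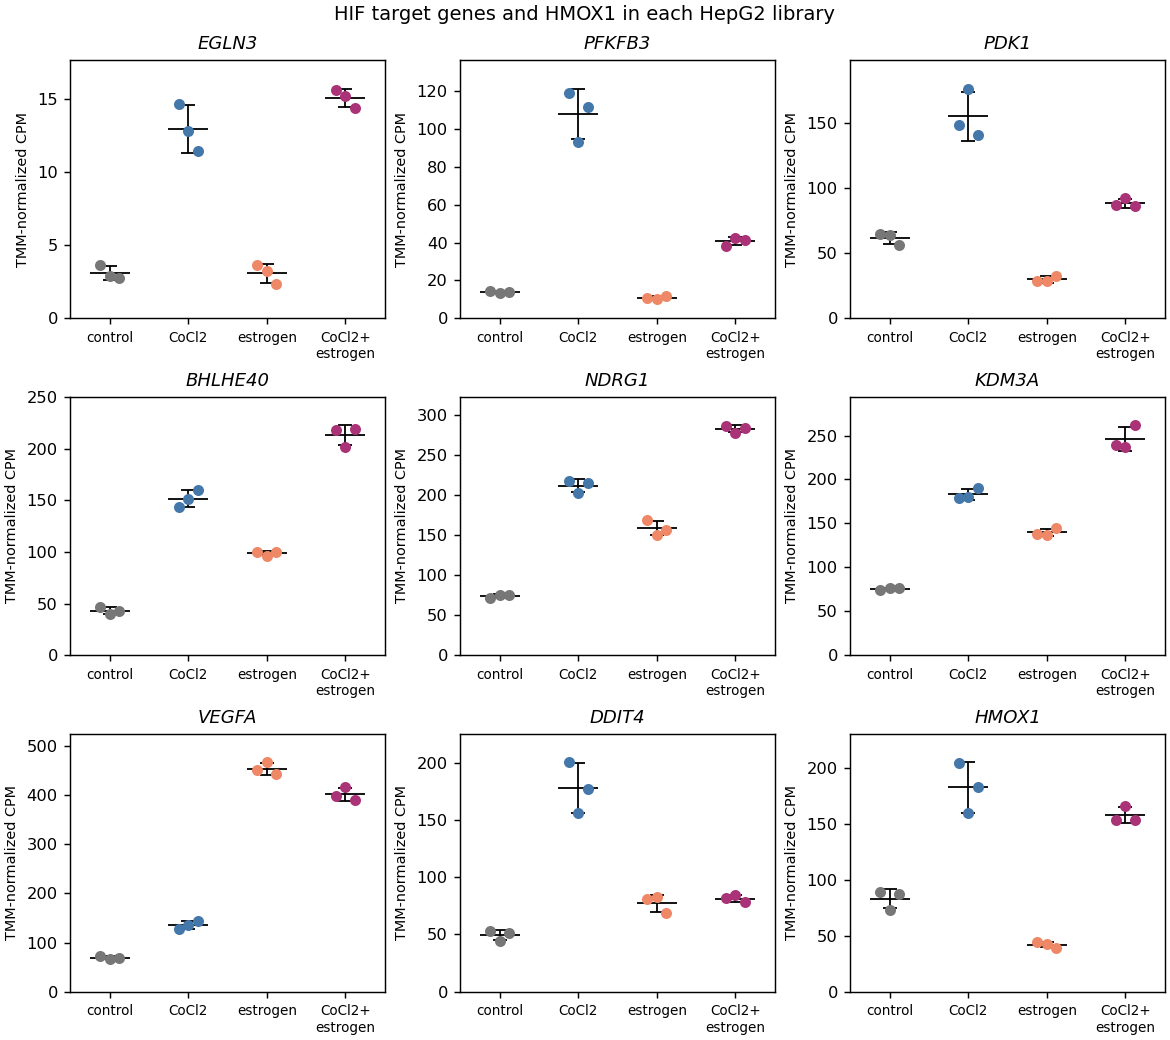
TMM-normalized CPM of 9 genes in each of the 12 HepG2 libraries, with 1 point per library and the mean with its SD (n = 3) as bars, for control, CoCl2, estrogen and CoCl2+estrogen cells. EGLN3, PFKFB3, PDK1, BHLHE40, NDRG1, KDM3A and HMOX1 rose on CoCl2 in both settings, whereas VEGFA and DDIT4 were called higher on CoCl2 only in the comparison without estrogen.

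HMOX1, which encodes the heme-degrading enzyme heme oxygenase 1, had the smallest adjusted p of the genes named here. It was at 44.1, 42.5 and 39.4 CPM in the estrogen libraries and 153, 166 and 153 CPM in the CoCl2+estrogen libraries, a rise of 1.94 (SE 0.07, adjusted p = 7.82e-12, edgeR), or 3.83-fold. It is a target of NRF2, the regulator of the antioxidant response. Of 18 measured NRF2 targets, 11 (61.1%) were higher and 3 (16.7%) lower, against 8.14% and 8.85% of all tested genes. The median of the list was 0.34. GCLC, which makes the precursor of glutathione, rose by 0.61 and TXNRD1 (thioredoxin reductase) by 0.59. NFE2L2, the NRF2 gene itself, fell by 0.52 (adjusted p = 4.45e-06, edgeR), and SLC7A11, the cystine transporter, by 0.50. The groups did not overlap for any of the genes named here, which also held for 32.7% of all tested genes.

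A list of iron and metal handling had 21 measured genes. Of these, 8 (38.1%) were higher and 1 (4.76%) lower, against 8.14% and 8.85% of all tested genes. The other 12 were not called, and 2 were lower without estrogen replicate C. TFRC (transferrin receptor) had 385, 346 and 347 CPM with estrogen and 449, 469 and 508 CPM with both agents, a rise of 0.43 (adjusted p = 6.48e-05, edgeR). FTH1 (ferritin heavy chain) rose by 0.45, TF (transferrin) by 0.33 and CP (ceruloplasmin) by 0.41. The exception was SLC30A1, a zinc exporter, which fell by 0.48 (adjusted p = 6.86e-06, edgeR). Metallothionein genes, which have near-identical copies and are uncertain for that reason, were not called.

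Of 29 measured genes of the cytosolic heat shock system, a list added after the values were seen, 18 (62.1%) were higher and none lower. The median was 0.27, and 8.14% of all tested genes were higher. HSPA8, the constitutive HSP70, had 366, 336 and 368 CPM in the estrogen and 706, 597 and 664 CPM in the CoCl2+estrogen libraries, a rise of 0.91 (SE 0.06, adjusted p = 2.20e-08, edgeR). HSPA1A and HSPA1B, the inducible HSP70 genes, rose by 1.32 and 1.09, although their near-identical sequences make the split of reads between them uncertain. Chaperones of the endoplasmic reticulum followed the same direction, with 13 of 20 (65%) higher and none lower. HSPA5 (BiP), the central chaperone of that compartment, rose by 0.35 (adjusted p = 0.000189, edgeR), PDIA4 and PDIA3, protein disulfide isomerases, by 0.44 and 0.40, and HSP90B1 (GRP94) by 0.37. Levels with both agents stayed under those of control cells for HSPA8, at a mean of 656 against 1702 CPM.

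Cytosolic ribosomal protein genes, another list added after the values were seen, had 29 of 78 members (37.2%) higher and none lower, with a median of 0.15. Over all tested genes, 8.14% were higher. The count of 29 fell to 1 when all 12 libraries entered a single fit. Scaling over 12 libraries placed the CoCl2 step 0.03 lower on the log2 scale at the median. Whether that shift accounts for the lost calls was not tested. The count was 14 without estrogen replicate A, 15 without estrogen replicate B and 11 without CoCl2+estrogen replicate A. For tubulin genes, likewise added, 7 of 18 (38.9%) were higher and none lower, and 4 were higher without estrogen replicate A or without CoCl2+estrogen replicate A.

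The integrated stress response is the branch of stress signalling in which ATF4 raises genes of amino acid supply and, under lasting stress, of cell death. Of 30 measured ATF4 targets, 14 (46.7%) were lower, against 8.85% of all tested genes. None was higher, 16 were not called and the median was -0.16. DDIT3, which encodes the pro-apoptotic factor CHOP, had 77.1, 75.5 and 66.4 CPM in estrogen libraries A, B and C and 20.6, 25.2 and 19.1 CPM in the CoCl2+estrogen libraries, a fall by 1.72 on the log2 scale (SE 0.10, adjusted p = 1.39e-09, edgeR). In control cells it was at 5.22, 5.28 and 5.19 CPM. PPP1R15A (GADD34), the phosphatase subunit that ends the response, fell from 660.3, 699 and 712 CPM to 340.5, 311 and 297 CPM, by 1.10 (SE 0.06, adjusted p = 1.39e-09, edgeR). The groups of both genes were widely separated. The stress sensor SESN2 fell by 0.88, the transcription factor ATF3 by 0.73 and the stress cytokine GDF15 by 0.56. ATF4 mRNA had a log2 change of -0.07 and was not called (adjusted p = 0.483, edgeR).

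Of 29 measured targets of p53, 21 (72.4%) were lower, against 8.85% of all tested genes. None was higher, and the median was -0.38. CDKN1A (p21), an inhibitor of cyclin-dependent kinases, had 642, 637 and 581 CPM with estrogen and 367, 354 and 319 CPM with both agents, a fall by 0.81 (SE 0.06, adjusted p = 7.04e-08, edgeR). MDM2, the ubiquitin ligase of p53, fell from 1046, 997 and 1062 CPM to 569, 582 and 638 CPM, by 0.77 (SE 0.06, adjusted p = 5.69e-08, edgeR). BTG2, an antiproliferative gene that is also an immediate early gene, fell by 1.23 and GADD45A, a growth arrest gene, by 0.85. SESN2 belongs to this list too. The list summed to 4642 to 4872 CPM with estrogen and 3193 to 3240 CPM with both agents, against 2231 to 2287 CPM in control cells. Among single genes, control means were 112 CPM for CDKN1A and 612 CPM for MDM2.

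Immediate early genes, which are transcribed within minutes of a growth or stress signal, had a median of -0.57. Of 29 measured, 23 (79.3%) were lower, against 8.85% of all tested genes, and none was higher. EGR1, a zinc finger transcription factor, had 377, 362 and 379 CPM with estrogen and 158, 129 and 149 CPM with both agents, a fall by 1.33 (SE 0.07, adjusted p = 4.48e-10, edgeR). FOS, a subunit of AP-1, fell from 27.5, 23.1 and 24.2 CPM to 9.21, 8.4 and 7.6 CPM, by 1.54 (SE 0.11, adjusted p = 4.76e-08, edgeR). In control and CoCl2 cells both were low, with means of 23.2 and 23.9 CPM for EGR1 and 0.986 and 2.1 CPM for FOS. The phosphatases DUSP1 and DUSP5, which switch off MAP kinases, fell by 1.14 and 1.06, and KLF6 by 0.87. The chemokine gene CXCL2 had the largest fall of the genes averaging 1 CPM or more, from 3.5, 3.5 and 3.48 CPM to 0.265, 0.967 and 0.205 CPM (log2 change -2.77, adjusted p = 6.90e-05, edgeR).

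**Figure D3:**
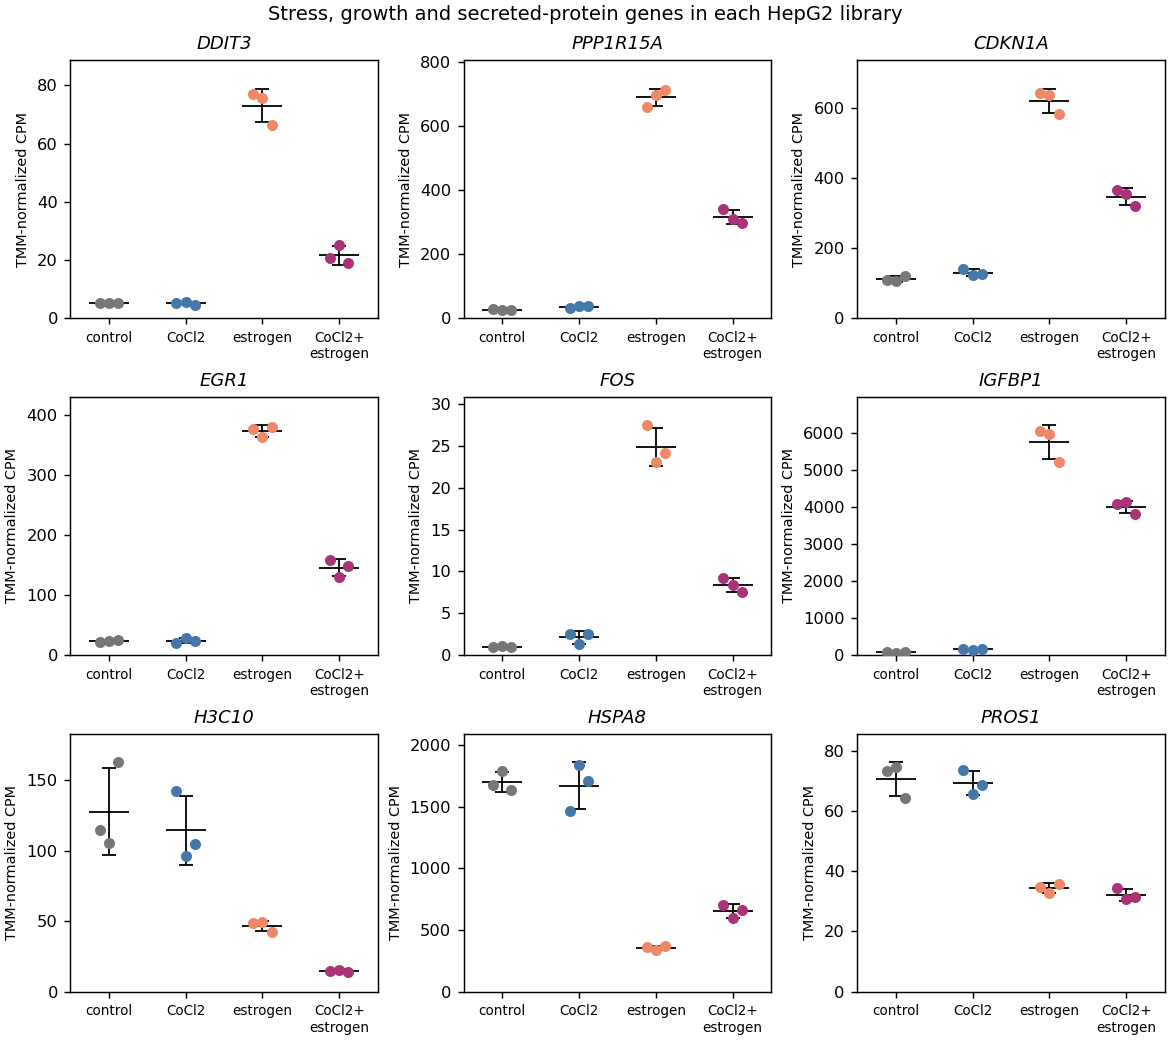
TMM-normalized CPM of 9 genes in each of the 12 HepG2 libraries, with 1 point per library and the mean with its SD (n = 3) as bars. DDIT3, PPP1R15A, CDKN1A, EGR1, FOS, IGFBP1 and H3C10 were lower with CoCl2+estrogen than with estrogen alone, HSPA8 was higher, and the PROS1 groups overlapped.

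Replication-dependent histone genes, a list added after the values were seen, had 43 of 54 measured members (79.6%) lower and none higher, with a median of -0.75. The share of all tested genes called lower was 8.85%. H3C10 had 48.6, 49.2 and 42.3 CPM with estrogen and 15, 15.7 and 13.8 CPM with both agents, a fall by 1.63 (SE 0.09, adjusted p = 1.80e-09, edgeR). H3C7, H2AC16, H3C13 and H1-3 were also among the 12 largest falls, with log2 changes of -1.81, -1.80, -1.70 and -1.59. Many genes of the same histone class are near-identical copies of one another, so the value of any single copy is uncertain. Most of their transcripts lack poly(A) tails, and the libraries were made by ribosomal RNA depletion, which does not require such a tail. Their summed level was 2484 to 2620 CPM in the estrogen and 1302 to 1734 CPM in the CoCl2+estrogen libraries, which did not overlap.

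Of 64 measured cell cycle genes, 10 (15.6%) were higher and 18 (28.1%) lower, against 8.14% and 8.85% of all tested genes. Without CoCl2+estrogen replicate A, 6 were higher. E2F8 and E2F7, repressors of the E2F family, fell by 1.05 (adjusted p = 8.67e-06, edgeR) and 0.76, and TOP2A, the topoisomerase of dividing cells, by 0.33. RRM2, the small subunit of ribonucleotide reductase, rose by 0.40 (adjusted p = 0.000187, edgeR). SKP2, which targets p27 for destruction, rose by 0.73 from 10.7, 8.93 and 9.18 CPM to 15.2, 14.1 and 17.9 CPM. Control cells had means of 284 CPM for RRM2 and 116 CPM for SKP2.

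The rest of the 12 largest falls were genes of low count. FUT1, a fucosyltransferase gene, fell by 2.14, and ZNF35 and ZNF662, zinc finger genes, by 1.76 and 1.56. P2RY11, which shares its exons with a readthrough transcript and is uncertain, fell by 2.52, and LOC100128770 by 2.64. SNORD3A, the U3 small nucleolar RNA, was called lower although its groups overlapped, with 1056, 1303 and 328 CPM in the estrogen and 140.2, 423 and 222 CPM in the CoCl2+estrogen libraries. It was named after its values were seen.

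**Figure D4:**
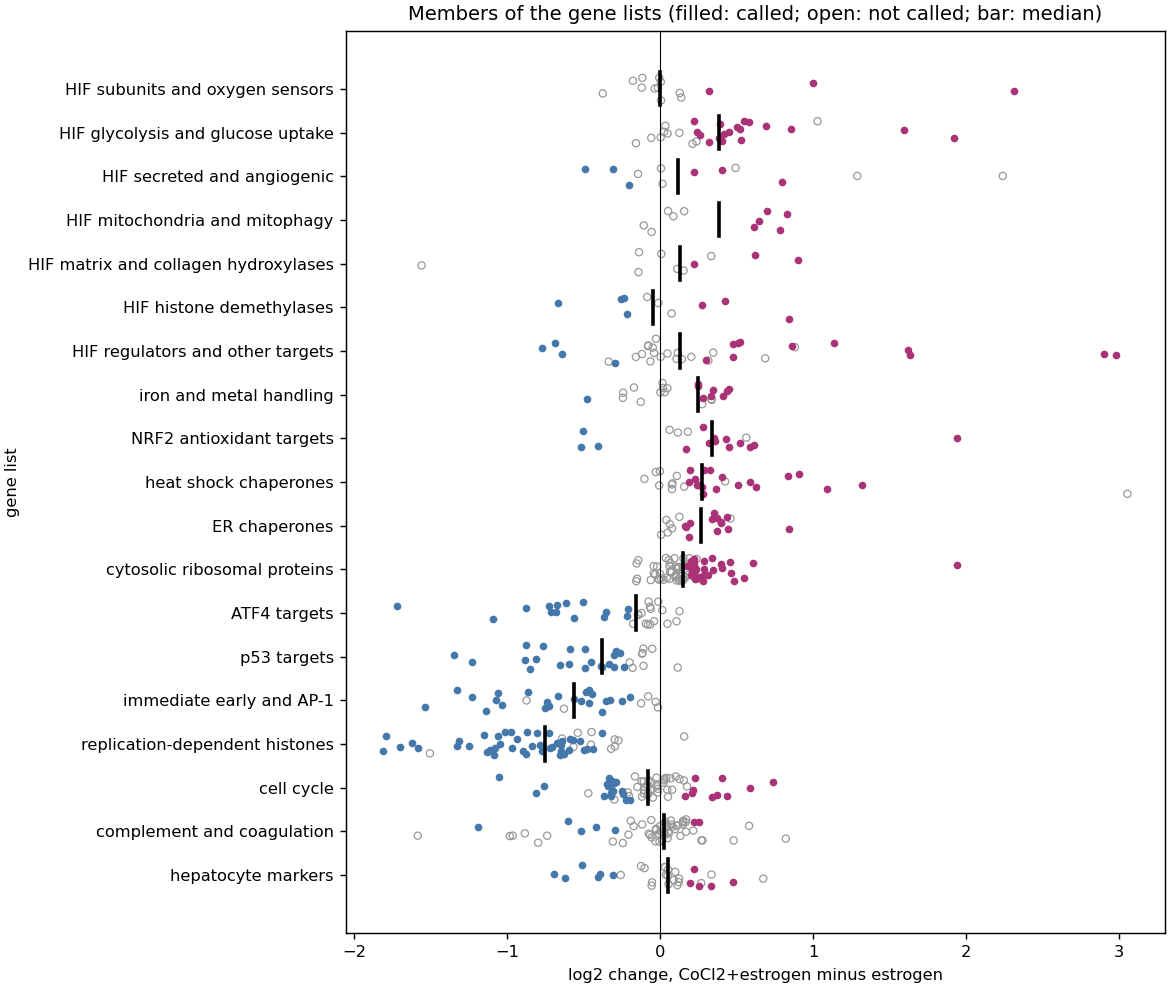
Log2 change between CoCl2+estrogen and estrogen cells (x axis) for each measured member of 19 gene lists (y axis), filled where called, with the list's median as a bar. The HIF glycolysis, NRF2, heat shock and endoplasmic reticulum chaperone lists have their medians to the right of 0, and the p53, immediate early and histone lists to the left, at -0.38, -0.57 and -0.75.

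PROS1 did not change detectably when CoCl2 was added to estrogen. It had 34.9, 32.7 and 35.8 CPM in estrogen libraries A, B and C and 34.5, 30.8 and 31.3 CPM in the CoCl2+estrogen libraries. The log2 change was -0.07 (SE 0.08, 95% interval -0.24 to 0.10, adjusted p = 0.629, edgeR), within the spread between libraries. Control cells had 73, 74.4 and 64.2 CPM and cells with CoCl2 alone 73.5, 65.6 and 68.6 CPM. The log2 change of CoCl2 without estrogen was -0.03, and the difference between both CoCl2 steps was -0.04 (adjusted p = 0.908, edgeR interaction test).

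Of 61 measured complement and coagulation genes, 2 were higher and 5 lower. PLAU (urokinase), a plasminogen activator, fell from 9.61, 8.72 and 7.37 CPM to 3.58, 3.57 and 3.9 CPM, by 1.19 (SE 0.16, adjusted p = 3.79e-05, edgeR). F3 (tissue factor), the initiator of coagulation, fell by 0.42 (adjusted p = 0.00909, edgeR), and F2RL1, a protease-activated receptor, by 0.60. SERPINA1 (α1-antitrypsin) rose by 0.25, which was not called without CoCl2+estrogen replicate A (adjusted p = 0.0574, edgeR) and left 1 gene higher. Over all tested genes 8.14% were higher and 8.85% lower, so that neither count in this list stood above the background.

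The liver identity genes did not move one way. Of 30 hepatocyte markers, 5 (16.7%) were higher and 6 (20%) lower, against 8.14% and 8.85% of all tested genes. Without CoCl2+estrogen replicate A, 3 of these markers were higher. The transcription factor genes HNF4A and FOXA2 fell by 0.31 and 0.41, whereas ALB (albumin) rose by 0.22, from 2702, 2559 and 2491 CPM to 3004, 2891 and 2944 CPM (adjusted p = 0.00746, edgeR). Of 27 genes of cholesterol synthesis and uptake 3 were called, and of 27 genes of fatty acid oxidation and 45 nuclear genes of the respiratory chain 1 and 4 were called. None of the 4 was called without estrogen replicate A or without CoCl2+estrogen replicate A. In the cholesterol, fatty acid and respiratory lists, 3.7%, 3.7% and 6.67% were higher and 7.41%, 0% and 2.22% lower. None of these shares stood above the 8.14% higher and 8.85% lower of all tested genes, and each rests on few genes.

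ESR1, the gene of estrogen receptor α, was of low count in these cells. It had 3.05, 3.5 and 5.14 CPM with estrogen and 1.92, 2.3 and 1.51 CPM with both agents, a fall by 0.98 (SE 0.26, adjusted p = 0.0124, edgeR), and 0.103, 0.182 and 0.292 CPM in control cells. The fall was not called without estrogen replicate C (adjusted p = 0.0742, edgeR) or without CoCl2+estrogen replicate C (adjusted p = 0.0552, edgeR). Of 25 measured genes of estrogen receptors and their targets, 3 (12%) were higher and 6 (24%) lower, against 8.14% and 8.85% of all tested genes, and 3 were lower without CoCl2+estrogen replicate C.

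The CoCl2 step was then set beside the same step without estrogen, in which control cells are compared with cells given CoCl2 alone. Those 6 libraries share none with the comparison above. Without estrogen, 229 of 15872 genes were called, 208 higher (1.31%) and 21 lower (0.132%), and 1789 had a p under 0.05 before adjustment. CoCl2 replicate B held 4.36% ribosomal RNA among its normalized counts against 0.922% to 1.56% in the other 11 libraries, and without it 232 genes were called. The count was 136 without control replicate A, 147 without control replicate B and 140 without CoCl2 replicate C. Of the genes called higher, 80 were shared by both comparisons, which was 6.17% of the 1296 called higher with estrogen and tested in both, and 38.5% of the 208 called without it. Another 31 of the 208 (14.9%) were called lower with estrogen. Of the genes called lower, 6 were shared, 0.432% of 1388 and 28.6% of 21. For reference, 8.14% of all genes tested with estrogen were called higher and 8.85% lower. Over 15116 genes tested in both, the log2 changes had a Pearson r of 0.139 and a Spearman rho of 0.0841, given as a description across genes that share libraries.

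The difference between both steps was tested directly as an interaction in a fit of all 12 libraries, and 967 of 16681 genes were called, 350 with a more positive step under estrogen (2.1%) and 617 with a more negative one (3.7%). With library totals alone as scaling, the split was 520 positive and 488 negative. For the HIF lists together, 59 of 117 measured genes were called higher without estrogen and none lower, against 46 higher and 11 lower of 118 with estrogen. The shares of all tested genes were 1.31% higher and 0.132% lower without estrogen, and 8.14% and 8.85% with it. The interaction was called positive for 3 and negative for 35 of the HIF genes. Among glycolysis genes, 4 interactions were negative and 1 positive of 28, whereas 18 of 34 regulators and other targets had a negative interaction.

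**Figure D5:**
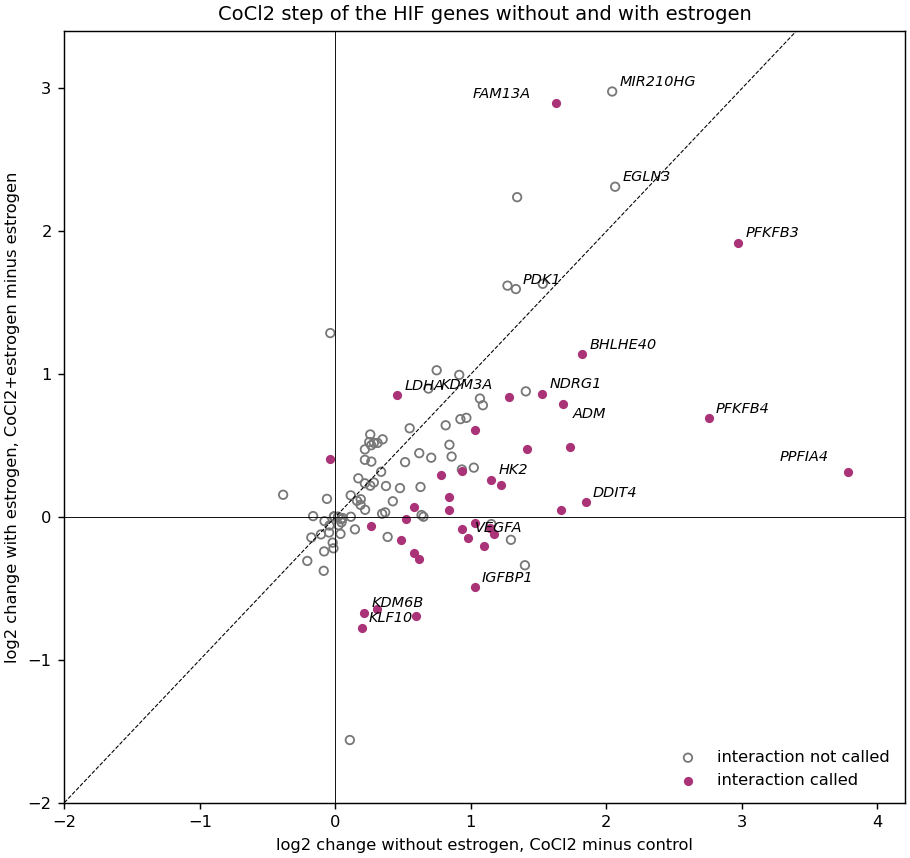
Log2 change on CoCl2 without estrogen (x axis) and with estrogen (y axis) for 117 genes of the HIF lists, with 1 point per gene, filled for the 38 with a called interaction. Along the dashed line both steps would be equal, and most filled points lie under it.

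PFKFB4, a relative of PFKFB3, was an example of a smaller step. It rose by 2.76 on CoCl2 without estrogen, from 12.4, 10.5 and 13.3 CPM to 85.9, 71.6 and 85.4 CPM. With estrogen it rose by 0.69, from 8.42, 7 and 7.51 CPM to 11.1, 13.1 and 12.2 CPM, and the interaction was -2.07 (adjusted p = 1.00e-06, edgeR). DDIT4 rose by 1.85 without estrogen, with an interaction of -1.75 (adjusted p = 4.35e-07, edgeR), and PPFIA4, a gene of low count, by 3.78. VEGFA rose by 0.98 without estrogen, from 72.4, 66.6 and 69.5 CPM to 128, 136 and 145 CPM, and its interaction was -1.12 (adjusted p = 1.02e-06, edgeR). In both groups with estrogen its level was above that of CoCl2 alone. ANGPTL4, which regulates lipoprotein lipase, rose by 1.73 without estrogen, and its change of 0.49 with estrogen was not called.

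IGFBP1 was called in opposite directions. It rose by 1.03 on CoCl2 without estrogen, from 71, 67.3 and 86.2 CPM to 168, 139 and 149.7 CPM, and fell with estrogen as given above, with an interaction of -1.52 (adjusted p = 1.02e-06, edgeR). KDM5B was another such gene, with 0.58 without and -0.26 with estrogen and an interaction of -0.83 (adjusted p = 1.41e-05, edgeR). PPP1R15A rose by 0.44 without estrogen (adjusted p = 0.0382, edgeR), and its interaction was -1.54.

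Not every HIF gene had a smaller step under estrogen. EGLN3 rose by 2.06 without estrogen, and its interaction of 0.25 was not called (adjusted p = 0.63, edgeR). The step of FAM13A was larger by 1.27 (adjusted p = 0.000937, edgeR), from a lower starting level, with means of 9.42 CPM in control and 1.57 CPM in estrogen cells. LDHA had an interaction of 0.40 (adjusted p = 0.034, edgeR). Outside the HIF lists, HMOX1 had an interaction of 0.80 (adjusted p = 0.000772, edgeR) and TMCC1 of 0.70 (adjusted p = 0.000232, edgeR).

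In the other lists, the interaction was negative for 18 of 29 immediate early genes, 16 of 29 p53 targets, 13 of 30 ATF4 targets and 27 of 58 histone genes, and positive for none of them. Over all tested genes it was called negative for 3.7% and positive for 2.1%. Without estrogen none of the 29 p53 targets and none of 57 histone genes was called, and 5 ATF4 targets and 3 immediate early genes were higher. Of the immediate early genes, 1 was also called lower without estrogen. In that comparison 1.31% of all tested genes were higher and 0.132% lower. DDIT3 had a log2 change of -0.004 on CoCl2 without estrogen and an interaction of -1.72 (adjusted p = 6.09e-06, edgeR). The interaction was positive for 8 and negative for 1 of 29 heat shock genes and positive for 5 of 20 endoplasmic reticulum chaperones. HSPA8 was at 1677, 1793 and 1637 CPM in control and 1464, 1839 and 1709.6 CPM in CoCl2 libraries, without a called change, and its interaction was 0.93 (adjusted p = 9.38e-05, edgeR).

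Among called genes that averaged 1 CPM or more over the 12 libraries, the 5 largest interactions of each sign belonged to genes of low level in 1 or more groups, whose fitted values depend on the prior count. Those with negative sign were KLRK1, MEF2B, IL12RB2 and FOXD1, besides FOS. KLRK1 was at 0.0455, 0.441, 4.84 and 2.09 CPM and MEF2B at 0.416, 1.26, 6.08 and 2.6 CPM in control, CoCl2, estrogen and CoCl2+estrogen cells. Those with positive sign were the readthrough gene RNF103-CHMP3, which is uncertain, CAPN8, ENPP7, LOC100652758 and ETNPPL. CAPN8 had no count in any of the 3 CoCl2 libraries, and means of 7.75 CPM with estrogen and 7.68 CPM with both agents, so that its CoCl2 step with estrogen was 0.02 and not called.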

How the data were processed

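RNA-Seq of 12 HepG2 libraries was used, 3 each of control, CoCl2, estrogen and CoCl2+estrogen cells, grouped by the deposited labels. Per the study's methods, stranded total RNA libraries were made with ribosomal RNA depletion and counted in Partek. The submitters' processing notes name Bowtie2 2.2.5 and STAR 2.7.8a, and the builds hg38 and mm10 without assigning them. Whether counting used the strand is not given in the sources used here, so genes overlapping on opposite strands may share reads. The authors deposited estimated counts per gene, unscaled, of which 23.8% of values were not whole numbers. They were rounded here. Of 28278 genes, 12353 did not pass the filter of a count above 5 in at least 1 of the 6 libraries, and 7034 had no count in any of the 12.

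The fits used R 4.3.3, edgeR 4.0.16 (TMM scaling, glmQLFit, glmQLFTest) and limma 3.58.1, without pairing, with a Benjamini-Hochberg threshold of 0.05. CPM values were scaled over all 12 libraries. DESeq2 1.42.0, other scalings and filters, a block on the replicate letter and leaving out libraries were run as alternatives. The functions were tested on simulated counts. Genes, gene lists and tests were chosen with earlier results of these data known. Genes named are those of the study, the 12 largest rises and falls, the called list members with the smallest adjusted p, the 5 largest interactions of each sign and the HIF subunits. Part of them is given, and members named beyond this were chosen after their values were seen. Some genes are not reported here, though they count in the totals and lists. No human genome or sequence table was used here, so sequences and coordinates are not given.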

Additional observations from a re-analysis of the deposited data

Results flagged for a closer look

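The CoCl2 step differed with and without estrogen for 967 genes by edgeR's interaction test over the 12 HepG2 libraries. Of the genes named in the report, 69 of 112 tested were among them, 51 with a more negative and 18 with a more positive log2 step under estrogen. Over all 16681 tested genes the shares were 3.7% and 2.1%, and some genes were named for their interaction. Values below are interactions on the log2 scale, with estrogen minus without.

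Among HIF genes with a more negative step were PPFIA4 at -3.46, PFKFB4 at -2.07, DDIT4 at -1.75, IGFBP1 at -1.52, ANGPTL4 at -1.25 and VEGFA at -1.12. Further HIF genes were PFKFB3 at -1.05, KLF10 at -0.97, SERTAD2 at -0.95, HK2 at -0.89, ADM at -0.89, KDM6B at -0.88 and KDM5B at -0.83. The smallest of these were BHLHE40 at -0.69, NDRG1 at -0.67, EGLN1 at -0.62, KDM3A at -0.44 and BNIP3 at -0.42. The step was more positive for EDN1 at 0.45, LDHA at 0.40 and FAM13A at 1.27.

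Stress and growth genes had negative interactions, with FOS at -2.68, DUSP1 at -1.72, DDIT3 at -1.72, PPP1R15A at -1.54, BTG2 at -1.39, EGR1 at -1.37 and GADD45A at -1.26. E2F7 was at -1.18, SESN2 at -1.10, KLF6 at -1.07, CDKN1A at -1.04, E2F8 at -1.02, ATF3 at -1.02, MDM2 at -0.99, DUSP5 at -0.95, GDF15 at -0.93, SLC7A11 at -0.71, NFE2L2 at -0.39, ATF4 at -0.36 and TOP2A at -0.31. The histone genes H2AC16, H3C7, H3C10 and H3C13 were at -1.96, -1.56, -1.48 and -1.40.

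Chaperone genes had positive interactions, with HSPA8 at 0.93, HSPA1A at 0.75, HSPA1B at 0.74, PDIA4 at 0.53 and HSPA5 at 0.39. HMOX1 was at 0.80, SKP2 at 0.80, TMCC1 at 0.70, RRM2 at 0.41 and MIR193BHG at 1.03. Of liver and coagulation genes, PLAU was at -1.01, F2RL1 at -0.67, FOXA2 at -0.58 and HNF4A at -0.41.

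Genes of low count in at least 1 group gave values that depend on the prior count. These were ESR1 at -2.36, KLRK1 at -4.13, MEF2B at -2.79, IL12RB2 at -2.63, FOXD1 at -2.39, ETNPPL at 2.06, LOC100652758 at 2.08, ENPP7 at 2.27, CAPN8 at 4.31 and RNF103-CHMP3 at 5.59.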

How the results depend on the processing

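The count of called genes between CoCl2+estrogen and estrogen cells ran from 2109 with all 12 libraries in one fit to 3791 with the replicate block, and was 2505 with DESeq2 and 3088 without a filter on low counts. Leaving out each library in turn gave 1671 to 2493, the lowest without estrogen replicate A. The replicate letters were not taken to pair the samples, since same-letter libraries deviated together for B (r = 0.288) and C (r = 0.129) but not for A (r = -0.026), and the replicate block moved none of the 3 counts over all genes by over 1.5 times. It raised genes called higher from 29 to 46 of the ribosomal proteins, 3 to 8 of the respiratory chain, 2 to 5 of complement and coagulation, 1 to 3 of cholesterol and 1 to 2 of fatty acid oxidation, and genes called lower from 1 to 2 of iron handling. Of the genes named it changed the call of VEGFA (adjusted p = 0.00819, edgeR). DESeq2 called 2392 of the 2706 genes and the replicate block 2704. With CoCl2 alone the 229 calls became 345 with DESeq2 and 397 with all 12 libraries in one fit, and 136 to 249 without single libraries, with 136 without control replicate A, 147 without control replicate B and 140 without CoCl2 replicate C. The 967 interactions ran from 771 with the replicate block to 1287 with DESeq2, and from 678 to 1044 without single libraries. PROS1 was not called under any of 15 alternatives, with log2 changes from -0.12 to -0.038 and adjusted p from 0.473 to 0.835. The cause of these shifts was not tested.

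Named genes that changed sign were not called in these fits. SLC2A1 was at -0.00496 with DESeq2, -0.00492 with median-ratio scaling, -0.00677 with library totals alone, -0.00352 without a filter, -0.0109 with filterByExpr, -0.0207 with all 12 libraries and -0.0031 without ribosomal RNA genes, an alternative chosen after seeing the data. EPAS1 was at 0.00642 with upper-quartile scaling, and CAPN8 at -0.00276 with all 12 libraries. FOXD1 was at -0.000989 with library totals alone, -0.00484 with filterByExpr and -0.0121 with all 12 libraries. Leaving out each library in turn gave -0.0858 to 0.00715 for HIF1A, -0.0381 to 0.0195 for SLC2A1, -0.103 to 0.552 for PPFIA4, -0.0569 to 0.131 for CAPN8 and -0.164 to 0.174 for FOXD1.

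HIF genes called higher numbered 42 to 49 and p53 targets called lower 18 to 21 over the alternatives, against 1 to 46 for ribosomal protein genes called higher. With 3 libraries a group, genes of low count give wide intervals, so a missing call does not show that a gene stayed level.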
